A study of Mus musculus with 4 samples.

Results

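Voltage-gated sodium and calcium channels are built from a large pore-forming subunit and smaller accessory subunits, and the genes of both were followed through an RNA immunoprecipitation (RIP) of the translational regulator CPEB2 from mouse brain. The genes were chosen by symbol, taking every gene on the array named Scn followed by a number and a or b, Cacna1, Cacna2d or Cacnb1 to Cacnb4, a rule that uses names and no signal. This gave 32 of the 24185 gene symbols on the array, carried by 53 probes. They comprised 20 pore-forming genes, 10 for sodium (Scn1a to Scn11a) and 10 for calcium (the alpha-1 genes), and 12 accessory genes, namely 4 sodium beta, 4 calcium alpha-2-delta and 4 calcium beta genes. Scn7a and Scn9a were not well above background on any array, so 30 of the 32 were tested.

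Sodium channels open on depolarization and carry the rising phase of the action potential, and in neurons they are concentrated at the axon initial segment and the nodes of Ranvier. Calcium channels convert depolarization into calcium entry, which releases transmitter at terminals (P/Q-, N- and R-type), couples activity to gene expression (L-type) or drives rhythmic firing near the resting potential (T-type). Sodium beta subunits modify gating and take part in cell adhesion, alpha-2-delta subunits bring calcium channels to the surface and to synapses, and calcium beta subunits bind the alpha-1 pore inside the cell. CPEB2 belongs to a family of proteins that bind U-rich cytoplasmic polyadenylation elements (CPEs) in the 3′ part of mRNAs and control their translation.

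RIP recovers the RNA held by a protein through an antibody, and the RNA recovered with control IgG gives the background. Lysate of the cortex and hippocampus of 8-week-old male C57BL/6 mice was incubated with beads carrying CPEB2 IgG or control IgG, in 2 independent experiments with the lysate divided between the antibodies. Each of the 4 RNA samples was labeled with Cy3 and hybridized to a 1-color Agilent mouse array of 60-base probes. No genetic change of the mice is named, the labels of the groups differ only in the antibody, and one free-text label of the samples titled CPEB2 gives CPEB3 IgG instead, whereas their titles and the protocol give CPEB2. A change is given here as the log2 ratio of CPEB2 IgG to control IgG after scaling each array to its 75th percentile, with the standard error (SE) of a limma fit in which the experiment was a block, on the brightest probe of each gene. A gene was called where the Benjamini-Hochberg adjusted p-value over all 19698 genes tested was under 0.05. P-values measure the spread between these 4 arrays only, and all arrays were on 1 slide with each antibody in its own positions, so that position and antibody cannot be told apart.

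The arrays had between 68.4% and 74.1% of their spots well above background and no saturated spot. Cpeb2 mRNA itself was 2.89 ± 0.25 (SE, n = 2 experiments) higher on the log2 scale with CPEB2 IgG (limma adjusted p = 0.00543). The tissue label was set against the signals of its markers. With control IgG, the neuron marker Rbfox3 read 27948 and 25466 and the neuron marker Gad1 9799 and 7986. Slc17a7, the dimmest of the 8 neuron markers there, read 939 and 1246. The skeletal muscle gene Ckm read 9.89 to 21.7 over the 4 arrays. Not all muscle markers were that dim. On the control arrays the skeletal muscle gene Acta1 read 565 and 659. The heart muscle genes Tnnt2 and Myh6 read 347 and 400, and 79.0 and 78.9. These muscle readings all lay below those of the neuron markers on the same arrays. As ratios between the antibodies, none of 8 neuron markers was called higher and 2 (Tubb3 and Nefl) were called lower. The median log2 ratio of the neuron markers was -0.30. Of 5 astrocyte markers 2 were called higher and 2 lower. Over all genes tested, 21.2% were called higher and 20.4% lower, and these lists are short.

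Stretches of 30 bases from 5 probes are shown, because the T-type pair, the most enriched sodium pore gene and the genes on which the experiments disagreed most are described by them below. The letters are those of the array annotation, 5′ to 3′ on the transcript strand. Capitals mark AATAAA, the letters of the polyadenylation signal, in the first 3, the CPE letters TTTTAT in the fourth, and 6 TG units (TGTGTGTGTGTG) in the fifth.
Cacna1i: agcgttgttttgAATAAAaccccagaaacg
Cacna1h: aaagcaaagctgAATAAAcactaacttatt
Scn3a: gaagtttgtcaaAATAAAgactagttaaaa
Scn3b: tcctctcacttgTTTTATaaatgagaaagc
Scn8a: gcacatgtaTGTGTGTGTGTGtgtgaagaa
On mm9, the whole probes lie at chr15:80228652-80228711 (Cacna1i, plus strand), chr17:25511235-25511294 (Cacna1h, minus strand), chr2:65296320-65296379 (Scn3a, minus strand), chr9:40098873-40098932 (Scn3b, plus strand) and chr15:100875702-100875761 (Scn8a, plus strand). AATAAA was present on the transcript strand in the probe of 5 of the 30 channel genes (Cacna1f, Cacna1h, Cacna1i, Scn11a and Scn3a) and of 15.4% of all genes tested, whose median log2 ratio was -0.19. Scn3b was the only channel gene whose probe held TTTTAT or TTTTAAT on that strand, against 5.75% of all genes tested, and the probes of Cacna1i and Scn10a held one of them on the other strand. With both strands counted, the share over all genes tested was 13.3%. A probe covers 60 bases of a much longer transcript, and whether a probe lies in coding or untranslated sequence was not determined here.

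Of the 30 channel genes tested, 9 were called higher with CPEB2 IgG and 2 lower. Over all genes tested, 21.2% were called higher and 20.4% lower. The median log2 ratio of the channel genes was -0.11, which was also the median of all genes tested, so the list as a whole did not sit above the array. The genes called higher were Scn3a, Scn2a1, Cacna1g, Cacna1d, Cacna1i, Cacna1e and Cacna1a among the pores and Scn4b and Cacna2d1 among the accessory genes, and the genes called lower were Cacnb1 and Cacnb3. An unadjusted p under 0.05 in the limma fit was reached by 13 of the 30, a smaller share than over all genes tested (10155 of 19698). A mean fold above 1.5 together with a signal above 1000 on a CPEB2 IgG array, the thresholds the study's methods name, was passed by 8 of the 30, against 16.4% of all genes tested. These were Scn1a, Scn2a1, Scn3a, Scn4b, Cacna1a, Cacna1g, Cacna1i and Cacna2d1. The fold was that of the scaled arrays. The study's methods also ask for at least 1 CPE in the 3′ untranslated region, which was not applied here. The 8 genes therefore need not be those on the study's list of targets.

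**Figure D1:**
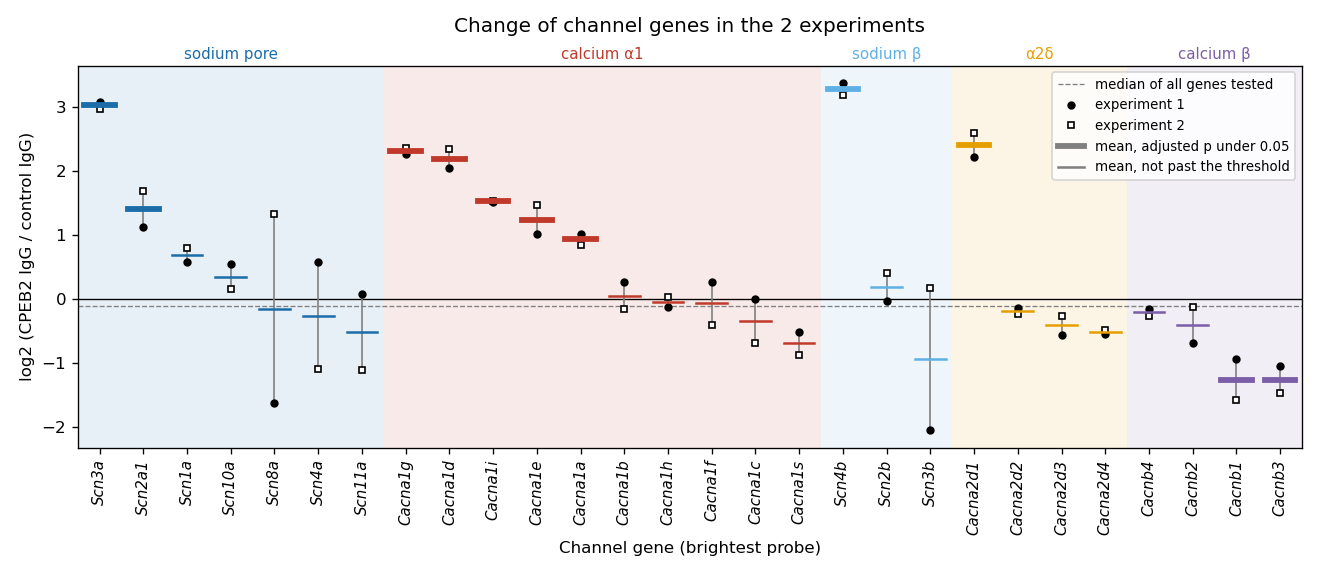
The log2 ratio of CPEB2 IgG to control IgG is plotted for 28 of the 30 channel genes tested, by subunit class, with experiment 1 (filled circle), experiment 2 (open square) and their mean (bar, thick where the limma adjusted p was under 0.05). The 7 pore-forming genes called higher range from 0.93 to 3.03, the calcium beta means all lie below 0, and Scn8a spans -1.63 to 1.32.

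The 2 roles differed in their counts. Among the pore-forming genes 7 of 18 were called higher (38.9%) and none lower, and their median log2 ratio was 0.20 (0.55 in experiment 1 and 0.47 in experiment 2). Among the accessory genes 2 of 12 were called higher and 2 lower (16.7% each), with a median of -0.35 (-0.42 and -0.25). Over all genes tested, the shares called were 21.2% higher and 20.4% lower. An unadjusted p under 0.05 in the limma fit was reached by 9 of 18 pore-forming and 4 of 12 accessory genes. Over all genes tested it was reached by 10155 of 19698, so neither role stood above the array in this count. The median of the pores exceeded that of the accessory genes by 0.97 in experiment 1 and by 0.72 in experiment 2. Between genes this difference was not tested. Without Scn3b and Scn8a, whose experiments disagreed most, the medians were 0.35 for 17 pore-forming genes and -0.30 for 11 accessory genes. In experiments 1 and 2 they were then 0.57 and 0.15 for the pores and -0.28 and -0.27 for the accessory genes. The pore-forming median of experiment 2 thus depended on Scn8a, at 0.47 with it and 0.15 without. With all genes of both roles kept, median centring of the arrays, which moved the median of all genes from -0.11 to 0.11, gave 0.42 and -0.12.

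Of the sodium pore genes, Scn3a changed most. Scn3a encodes Nav1.3, the pore best known from the developing brain, and its signal was 6800 and 6428 on the CPEB2 IgG arrays of experiments 1 and 2 and 849 and 833 on the control IgG arrays. The CPEB2 IgG arrays stood far above the control arrays, and the ratio was 8.15-fold (log2 3.03 ± 0.23 SE, n = 2, limma adjusted p = 0.00543). Only 1.22% of all genes tested lay at or above it. Scn2a1, now named Scn2a, encodes Nav1.2 of excitatory neurons and their initial segments, and it read 26481 and 38996 with CPEB2 IgG against 12823 and 12331 with control IgG. Each CPEB2 IgG array stood above both control arrays, by 2.65-fold on average (log2 1.41 ± 0.26 SE, adjusted p = 0.0156), although without the filter on dim probes the gene was not called (adjusted p = 0.0605). Scn1a encodes Nav1.1, the main pore of fast-spiking inhibitory neurons, and it read 3306 and 3571 against 2338 and 2106. Here too the groups did not overlap, but the log2 ratio of 0.68 ± 0.23 (SE) did not pass the test (adjusted p = 0.0748), although the gene passed the fold and signal thresholds of the study.

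The other sodium pore genes tested did not pass the test. Scn8a, for Nav1.6 at nodes and initial segments, is described with the disagreement between experiments. Scn10a, Scn11a and Scn4a, known from sensory neurons and skeletal muscle, had log2 ratios of 0.35, -0.51 and -0.26. For Scn11a and Scn4a the 2 experiments differed in sign. Scn7a read 8.09 to 16.2 and Scn9a 6.82 to 16.8 on the 4 arrays, and neither was tested.

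Among the calcium alpha-1 genes, 5 of 10 were called higher (21.2% of all genes tested) and none lower (20.4%), with a median log2 ratio of 0.49. T-type pores, the low-voltage-activated group, held 2 of them. Cacna1g (Cav3.1) read 2303 and 1732 with CPEB2 IgG against 507 and 345 with control IgG. The change was 4.95-fold and nearly the same in each experiment (log2 2.27 and 2.35, mean 2.31 ± 0.23 SE, limma adjusted p = 0.00543). Cacna1i (Cav3.3) read 4088 and 3595 against 1508 and 1264, again without overlap. Its log2 ratios were 1.52 and 1.53 (mean 1.53 ± 0.23 SE, adjusted p = 0.00918). The third T-type gene, Cacna1h (Cav3.2), had a log2 ratio of -0.04 (adjusted p = 0.899), although its probe holds the polyadenylation signal letters as that of Cacna1i does.

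Of the L-type pores, only Cacna1d was called. Cacna1d (Cav1.3), which opens at more negative voltages than its relative Cacna1c, read 746 and 587 with CPEB2 IgG against 193 and 118 with control IgG. The ratio was 4.56-fold (log2 2.19 ± 0.24 SE, limma adjusted p = 0.00576), with no overlap of the groups. Cacna1c (Cav1.2), Cacna1f of the retina and Cacna1s of skeletal muscle had log2 ratios of -0.34, -0.07 and -0.69, and Cacna1c read only 14.2 to 23.6 on the arrays. Of the presynaptic types, Cacna1e (R-type, Cav2.3) was higher by 1.24 and Cacna1a (P/Q-type, Cav2.1) by 0.93 on the log2 scale (adjusted p = 0.0195 and 0.0331), while Cacna1b (N-type, Cav2.2) had 0.05 and read 38.6 to 46.1. Cacna1e had only 1 probe, which was dim. It read 63.2 to 192 on the arrays, whose median spot signals were 59.0 to 76.5. The calls of Cacna1a and Cacna1e were lost without either control array (adjusted p = 0.113 and 0.104 for Cacna1a, 0.0957 and 0.055 for Cacna1e), and that of Cacna1e also without the second CPEB2 IgG array (0.0621). Cacna1a was not called with spike-in scaling either (adjusted p = 0.0929), nor were Cacna1a and Cacna1e without the filter on dim probes (0.0684 and 0.0629).

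**Figure D2:**
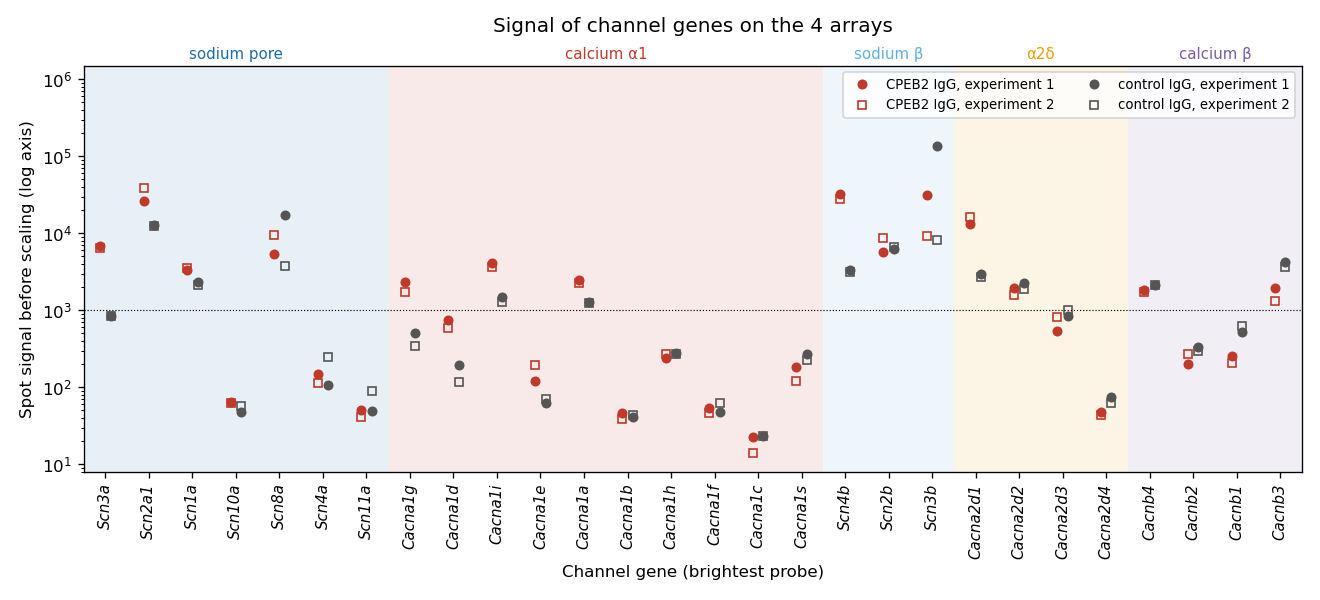
The signal of the brightest probe of 28 of the 30 channel genes tested, before scaling and on a log axis, is shown on the 2 CPEB2 IgG arrays (red) and the 2 control IgG arrays (grey), with a dotted line at a signal of 1000. For Scn4b, Scn3a and Cacna2d1 the red and grey points are far apart, whereas for Scn3b and Scn8a the control array of experiment 1 lies far above that of experiment 2.

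The sodium beta genes were mixed. Scn4b encodes the subunit whose tail acts as a blocking particle for resurgent sodium current, and it read 32100 and 28162 with CPEB2 IgG against 3299 and 3138 with control IgG. At 9.70-fold (log2 3.28 ± 0.23 SE, n = 2, limma adjusted p = 0.00543) it was the largest change among the channel genes, and 0.716% of all genes tested lay at or above it. Scn4b had only 1 probe, which lies at chr9:44962045-44962104 on mm9. Scn2b, whose product is disulfide-linked to the pore as that of Scn4b is, read 5783 and 8732 against 6274 and 6720. These groups overlapped, and the log2 ratio was 0.18 ± 0.25 (SE, adjusted p = 0.596). The 2 disulfide-linked beta genes therefore had log2 ratios of 3.28 and 0.18.

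Of the alpha-2-delta genes, Cacna2d1 was called higher. Cacna2d1, whose product binds gabapentin, read 13068 and 16079 with CPEB2 IgG against 2965 and 2719 with control IgG. The groups did not overlap, and the ratio was 5.30-fold (log2 2.41 ± 0.24 SE, limma adjusted p = 0.00546). Its probes, annotated to different transcripts, rose alike in direction, with log2 ratios of 2.41 and 1.37 (limma adjusted p = 0.00418 and 0.0123 when each probe was tested by itself). On the plus strand of mm9 they start at chr5:15880152 and chr5:15876550, so the more downstream probe had the higher ratio. The pair is not among the channel transcripts compared below. Cacna2d2, the other gabapentin-binding subunit, read 1942 and 1568 against 2269 and 1871, and the groups overlapped (log2 -0.19 ± 0.23 SE, adjusted p = 0.557). Cacna2d3 and Cacna2d4 had log2 ratios of -0.41 and -0.52 and were not called.

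The calcium beta genes lay lowest of the 5 classes, with a median log2 ratio of -0.83 and means below 0 in both experiments for all 4, except that Cacnb4 was at 0.01 after median centring and that Cacnb2 read 0.88 (adjusted p = 0.0305) when centring within bins of probe GC content put another of its probes first. Cacnb3, prominent at neuronal N- and L-type channels, read 1919 and 1306 with CPEB2 IgG against 4208 and 3675 with control IgG. It was 2.39-fold lower (log2 -1.26 ± 0.25 SE, limma adjusted p = 0.0181), without overlap. Cacnb1, the beta subunit of skeletal muscle that the brain also expresses, read 258 and 204 against 524 and 619. It too was 2.39-fold lower (log2 -1.26 ± 0.27 SE, adjusted p = 0.0228). Cacnb3 and Cacnb1 had only 1 probe each. Cacnb4, the subunit altered in the lethargic mouse, read 1817 and 1750 against 2142 and 2145, and this small separation did not pass the test (log2 -0.21 ± 0.23 SE, adjusted p = 0.503). Cacnb2, the main beta subunit of heart, read 198 and 273 against 337 and 300 (log2 -0.40 ± 0.26 SE, adjusted p = 0.283). Cacnb3 lost its call without either control array (adjusted p = 0.0719 without the first and 0.051 without the second), and Cacnb1 lost its call without the second CPEB2 IgG array (0.053) or the second control array (0.0723). Without the filter on dim probes neither was called (adjusted p = 0.0599 for Cacnb3 and 0.0759 for Cacnb1).

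The 2 experiments differed in sign for 9 of the 30 channel genes tested, against 3996 of all 19698 genes tested. Scn11a was at 0.08 in experiment 1 and -1.11 in experiment 2, and Scn4a at 0.57 and -1.09. Gaps as large were reached by 8.89% and 4.27% of all genes tested. The gaps were largest for Scn3b and Scn8a. Scn3b, an accessory gene, read 31220 and 9165 with CPEB2 IgG against 137293 and 8252 with control IgG, so its control value in experiment 1 stood far above the other 3 arrays. The log2 ratio was -2.05 in experiment 1 and 0.17 in experiment 2, a gap that 2.11% of all genes tested equalled or exceeded. Without the first control array the log2 ratio was 1.06 (limma adjusted p = 0.282), and without the second it was -2.94 (adjusted p = 0.019). Scn8a read 5314 and 9394 against 17363 and 3814. Its log2 ratios were -1.63 and 1.32, with a mean of -0.15 ± 0.72 (SE, adjusted p = 0.883), and 0.731% of genes had a gap as large. The other probes of Scn8a agreed between experiments, at -0.43 and -0.47 for the first and at -0.78 and -1.38 for the second. Tested by itself, that second probe was lower (log2 -1.08, adjusted p = 0.0301), on readings of 26.6 and 21.2 with CPEB2 IgG against 48.4 and 55.9 with control IgG.

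The Scn8a probe with the disagreeing values is the one that holds the TG repeat printed above, and the other 2 do not hold it. The repeat was looked at after these values were seen. It was present in the probe of 86 of the 19698 genes tested (0.437%). Their median log2 ratio was -1.47 in experiment 1 and 1.11 in experiment 2, against -0.01 and -0.20 over all genes tested. Of the 86 genes, 82 were lower in experiment 1 and higher in experiment 2, as were 7.10% of all genes tested. Scn8a at -1.63 and 1.32 lies within this set. The probe of Scn3b does not hold the repeat.

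**Figure D3:**
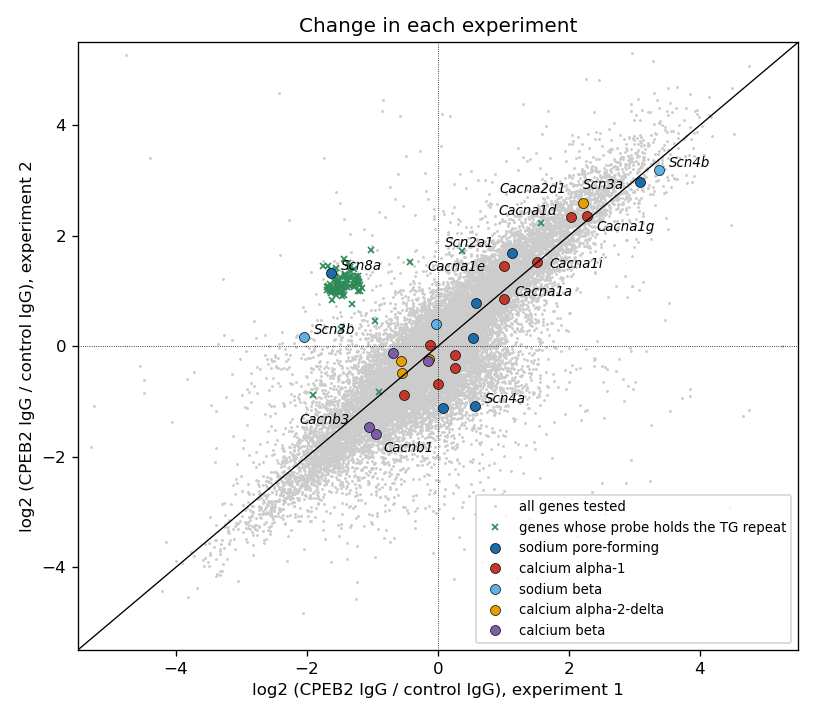
Each gene tested is placed by its log2 ratio in experiment 1 (horizontal axis) and experiment 2 (vertical axis), with 28 of the channel genes as filled circles coloured by subunit class and the 86 genes whose probe holds the TG repeat as green crosses. The genes called higher lie near the diagonal, Scn8a lies among the crosses near -1.47 and 1.11, and Scn3b lies apart from them.

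Several channel transcripts carried more than 1 probe, and their ratios differed between probes. In 11 channel transcripts at least 2 probes were tested, and the most downstream probe had the higher log2 ratio in 9 of them, with a median difference of 0.89. It was higher in both experiments in 8 of the 11, and in 2610 of 4185 transcripts over all genes. Scn8a, whose downstream probe holds the TG repeat, differed by -1.2 in experiment 1 and by 1.79 in experiment 2. Over all genes the downstream probe was higher in 3125 of 4185 transcripts (74.7%), with a median difference of 0.50, so the direction was general on these arrays. Among transcripts whose probes lay at least 1000 bases apart, it was 6 of 7 for the channels and 82.4% of 2064 for all genes. The channel exceptions were Cacna1s, with a difference of -0.07, and Scn3a.

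For the T-type genes called higher, Cacna1i and Cacna1g, the upstream probes gave another picture than the downstream ones. Cacna1i had a log2 ratio of -0.63 at base 7066 of its transcript (152 and 101 with CPEB2 IgG against 197 and 200) and of 1.53 at base 9723. Cacna1g had 0.19 at base 7409 (357 and 326 against 315 and 303) and 2.31 at base 8005, only 596 bases further on. Both differences, 2.15 and 2.11, were present in each experiment. Cacna1d had 0.71 at base 6870 and 2.19 at base 8356, and Cacna1a had 0.93 and 1.18 at bases 7503 and 7726.

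Scn2a1 had 3 probes on its transcript. At base 888 the log2 ratio was -0.13 (283 and 269 with CPEB2 IgG against 315 and 311). At base 6688 it was 2.19, from 10 repeated spots that averaged 8117 and 10922 against 2108 and 2183 and varied by 3.16% to 7.90% (coefficient of variation) within an array. At base 8614, the brightest probe, it was 1.41. The first probe thus showed groups that differed little, and the other 2 showed groups far apart. Scn1a went from -0.13 at base 599 to 0.68 at base 6044.

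Scn3a had 5 probes. Those at bases 6735 and 8355 had log2 ratios of 2.06 and 3.03, and the one at base 9000, which read 64.2 and 66.4 against 43.9 and 38.0, had 0.73. A further 2 probes on other transcripts of the gene had -0.25 and -0.43, with all readings between 40.0 and 81.5. Cacnb2 went from -0.40 at base 692 to 0.79 at base 2321, where the signal was 315 and 334 with CPEB2 IgG against 183 and 206 with control IgG, and this probe did not pass the test by itself (adjusted p = 0.0504). Cacna2d2 went from -0.19 at base 5109 to 0.70 at base 5479 (adjusted p = 0.0748).

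**Figure D4:**
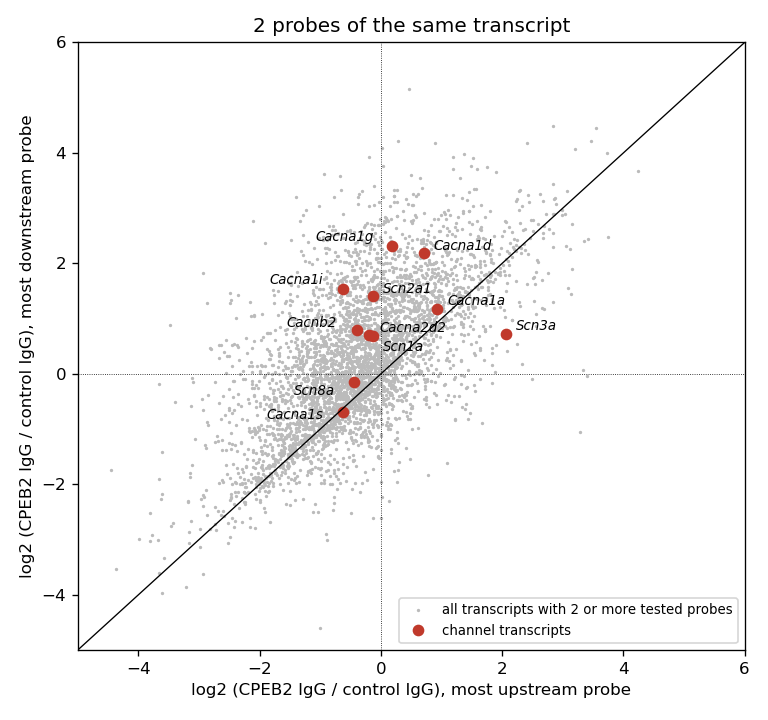
For each transcript with at least 2 tested probes, the log2 ratio of CPEB2 IgG to control IgG at the most upstream probe (horizontal axis) is set against that at the most downstream probe (vertical axis), in grey for all 4185 transcripts and in red for the 11 channel transcripts. Of the channel transcripts 9 lie above the diagonal, with Cacna1i and Cacna1g farthest from it on that side and Scn3a below it.

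With every probe tested by itself, 13 of 51 channel probes were higher (19.9% of all probes) and 3 lower (21.6% of all probes). The 3 lower probes were those of Cacnb1, Cacnb3 and Scn8a. With the mean of all probes in place of the brightest one, the log2 ratio was 1.25 for Cacna1g, 1.45 for Cacna1d, 1.03 for Scn3a and 0.45 for Cacna1i, and Cacna1i was no longer called (limma adjusted p = 0.194). Probe GC content moved with the ratio, with a correlation of -0.36 across the 19698 genes tested, which are not independent replicates. The median GC content was 36.7% for the probes of the 9 channel genes called higher, 55.0% for the 2 called lower and 45.0% for the 19 not called, against 41.7% over all genes tested. Of the genes called higher, Scn4b, Cacna1i, Cacna1a and Cacna1d, at 45.0% to 55.0%, lay above the median of all genes tested. The downstream probe had the lower GC content in 8 of the 11 channel transcripts and in 64.3% of all transcripts. Where the GC content of both probes lay within 5 percentage points, the downstream probe had the higher log2 ratio in 3 of 5 channel transcripts and in 70.6% of 2028 transcripts over all genes, with median differences of 0.81 and 0.35. The part of GC content and of probe position in these ratios was not tested, and after centring within bins of GC content 10 channel genes were higher and 2 lower. No stretch longer than 13 bases was shared by probes of different channel genes.

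A separate list held genes whose products bind, anchor or regulate these channels. It also held genes of the sodium leak channel and of the calcium channel gamma family, which the choice by symbol did not take. Of the 38 genes on this list 37 were tested. Among them 10 were called higher (27.0%, against 21.2% of all genes tested) and 2 lower (5.41%, against 20.4%), and the median log2 ratio was 0.33. The largest was that of Unc79, a partner of the sodium leak channel, which read 5935 and 6844 with CPEB2 IgG against 493 and 513 with control IgG (log2 3.72 ± 0.23 SE, limma adjusted p = 0.00543). Nedd4l, a ubiquitin ligase that removes sodium channels from the membrane, had 2.39, and Ank3, whose product ankyrin-G anchors sodium channels at the initial segment, had 2.37 (adjusted p = 0.0069 and 0.00543). Cacng7 of the calcium channel gamma family, Fgf12, an intracellular factor that binds the sodium channel tail, and Gem, a small GTPase that inhibits calcium channels, had 1.81, 1.75 and 1.74. The genes called lower were Cabp1, a calcium sensor that binds calcium channels, at -1.78 and the calmodulin gene Calm3 at -0.89 (adjusted p = 0.00714 and 0.0368). Cacng1, the gamma subunit of skeletal muscle, read 4.37 to 17.4 and was not tested.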

How the data were processed

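Each of the 4 deposited files is the output of Agilent Feature Extraction 10.5.1.1, per the file headers, and gives for every spot an intensity from which the software had subtracted background. The authors had not scaled the arrays to each other. Probe coordinates are on mm9, as annotated in the files. Control spots were not used, nor were spots marked non-uniform or outlying, and 66 probes without a value on some array were dropped. The log2 intensity minus the 75th percentile of each array was fitted with limma 3.58.1 (R 4.3.3) across 19698 genes well above background on at least 2 arrays, with the experiment as a block, after a test on simulated data. The study states that the lysate was divided between antibodies, so same-numbered arrays were treated as pairs. The differences between the replicates of the 2 antibodies correlated only weakly (0.203) across the 19698 genes tested, which are not independent replicates. Python 3.11.15, numpy 2.4.6 and pandas 2.3.3 were used for the rest. With 4 arrays, their number limits the precision of each value.

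The channel genes, the partner genes and the markers were chosen with earlier results of these data known. Values per array are given, within each subunit class, for the 2 largest called changes in each direction, for genes not called with a mean signal above 1000 in either group, and for genes whose probes disagreed in sign by more than 1 on the log2 scale. Of the channel genes, 2 that were tested and not called are counted but not reported here by name. Partner genes are named only where called, at most 6 in each direction, apart from Cacng1, which was not tested. The accessions of 46 of the 53 channel probes matched the RefSeq gene table (GRCm38.p6), which was used for names only. The alternatives tried were other scalings, background corrections, probe filters, ways to combine probes, thresholds, no block, and each array or experiment left out.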

Additional observations from a re-analysis of the deposited data

How the results depend on the processing

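The 9 channel genes called higher became 6 to 10 under the alternatives, and the 2 called lower became 4 with an intensity trend and likewise with normexp, 1 with a signal filter of 1000, and 0 without a filter on dim probes, where more genes were tested and where Scn2a1, Cacna1a and Cacna1e also lost their calls. With single arrays left out, 7 to 9 were higher and 1 to 4 lower. Without the replicate block 10 were higher and 2 lower, the block having kept Scn1a from its call (adjusted p = 0.0452 without it), and it changed no other call. Scn4b, Scn3a, Cacna2d1, Cacna1g and Cacna1d were called in every fit that tested them, and none of the 11 called genes changed sign. The pore-forming median was 0.43 with quantile normalization, 0.42 with median centring, 0.09 both with the percentile over probes detected on all arrays and with normexp, 0.29 with spike-in scaling, 0.35 for genes detected on all 4 arrays and 1.41 with the signal filter, and 0.47 to 0.55 in single experiments. The accessory median was -0.12 with median centring, -0.14 within GC bins and -0.21 with the signal filter, and their difference, 0.55 in the means, ranged from 0.37 within GC bins, 0.40 with normexp and 0.42 for the mean of all probes to 0.77 with quantile normalization and 1.62 with the signal filter, and was 0.72 to 0.97 in single experiments. Sign changes were confined to genes not called. In single experiments, Scn11a was at 0.08 in the first and -1.11 in the second. Cacna1b was at -0.004 with no scaling, -0.06 with the percentile over detected probes, -0.01 with normexp, and as low as -0.16 with an array or experiment left out. Cacna1f was at 0.16 with quantile normalization and with median centring, 0.02 with spike-in scaling, 0.03 with normexp and -0.40 to 0.26 with an array or experiment left out, and Cacna1h was at 0.03, 0.19 and 0.05 under the first 3 of these, and up to 0.04 with an array left out. Cacna2d2 was at 0.04 with median centring, 0.08 within GC bins and 0.26 for the mean of its probes, Cacnb4 at 0.01 with median centring, and Scn4a at 0.01 within GC bins and -1.09 to 0.57 with an array or experiment left out. Scn8a was at 0.08 with median centring, 0.12 within GC bins and -1.63 to 1.32 with an array or experiment left out, Cacnb2 at 0.88 within GC bins, Scn2b at -0.11 to 0.48 with an array left out, and Scn3b at -2.94 to 1.06. The cause of these shifts was not tested. The alternatives of each probe tested by itself and the other probes of Scn8a, were added after seeing the data.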
